A study of Mus musculus with 12 samples.

Results

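The genes of the insulin-like growth factor (IGF) axis were examined in C2C12 cells, a mouse myoblast line that divides in serum-rich growth medium and fuses into myotubes after serum withdrawal. They comprised 10 genes, taken by symbol from the 3 deposited RNA-seq tables, which together held 10289 genes. They encode the ligands IGF1 and IGF2, the receptors IGF1R and IGF2R, and 6 of the binding proteins (Igfbp2, Igfbp3, Igfbp4, Igfbp5, Igfbp6 and Igfbp7). The tables compared GFP-overexpressing cells on day 4 of differentiation medium (D4) with GFP-overexpressing cells in growth medium (GM), and Mettl3- or Mettl14-overexpressing cells in GM with the same GFP cells in GM. METTL3 and METTL14 form the core of the enzyme that writes N6-methyladenosine (m6A) on mRNA. Each of these 4 groups had 2 RNA-seq libraries, called mRNA-seq in the authors' methods. All groups were stable C2C12 lines made by lentiviral infection and puromycin selection, with the mouse METTL3 or METTL14 cDNA, or GFP as the negative control, carried by a vector with a CMV promoter. The labels do not say whether the libraries of a group came from separate cultures or clones. The labels of the Mettl14-overexpressing libraries disagreed, with day 4 as the time point and day 0 in the titles, and the titles were followed. Another 4 libraries of m6A immunoprecipitation and input were not analysed here.

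IGF1 and IGF2 are secreted peptides that bind IGF1R, a receptor tyrosine kinase whose signal through PI3K and AKT favours growth of muscle cells. IGF2R, which has no kinase, takes IGF2 into the cell for breakdown in lysosomes. Most of the ligand outside cells is held by IGF binding proteins, which can keep it from the receptor or carry it to it, and muscle cells make both ligands and binding proteins themselves.

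Each table listed only the genes that the authors kept at a false discovery rate of at most 0.05, with a mean normalized count per gene averaged by the authors over libraries. It is called the pooled mean here. For the 1746 genes in more than 1 table it was the same in each (largest relative difference 4.77e-10), so it describes the libraries together and not a group. The libraries averaged are not named. By the titles GFP D4 was the only group in differentiation medium, so a mean over all groups gives cells in GM more weight. A gene expressed mainly on day 4 would have a lower pooled mean than in D4 alone. Values per library were not analysed here, and the authors' fold changes and p-values were not used, so no difference between GM and D4 or between lines was measured here, no error can be given for a level, and the overexpression of Mettl3 and Mettl14 could not be checked library by library. Of all annotated protein-coding genes, 42.2% were listed in at least 1 table. Muscle genes fixed as markers were all listed, 8 of 8, with Acta1, the skeletal actin gene, at a pooled mean of 53546 and Des, the gene of the muscle intermediate filament desmin, at 24157. Of the mesenchymal markers 3 of 4 were listed, with Cd34 at a pooled mean of 1418, Ly6a at 750 and Pdgfra at 525. These pooled means are not corrected for gene length, and per kb of exon Ly6a was the highest of these. None of 3 immune, 2 endothelial and 3 epithelial markers was listed, which does not give their level.

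All 10 genes of the IGF axis had a row in the D4 table of 9823 genes, where 40.1% of the 21951 annotated protein-coding genes had one. The METTL3 table of 1754 genes held 7 of them, where 7.80% of annotated protein-coding genes had a row, and the METTL14 table of 1102 genes held 5, where 4.91% had one. Annotated genes include silent ones, so these background shares are lower than the shares among expressed genes would be. The 10 genes were also taken from rows of these same tables, and Igfbp1 and Igfals, which had no row, are not among them. The counts therefore describe the rows and do not measure enrichment. Igf1, Igf2r, Igfbp2, Igfbp3 and Igfbp7 were in all 3 tables. Igfbp5 and Igfbp6 were in the D4 and METTL3 tables, and Igf2, Igf1r and Igfbp4 were in the D4 table and in neither of the others. The 3 comparisons share the GFP libraries in GM. A row records that the gene passed the authors' limit and gives no direction here, and the want of a row does not show that a gene was the same in both groups. The filter also acts on genes with few reads. The lowest pooled mean was 1.61 in the D4 table, 8.18 in the METTL3 table and 4.54 in the METTL14 table.

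The pooled means of the 10 genes ran over a 9135-fold range. The lowest of them, that of Igf2, is uncertain because Igf2 shares exons with another gene model. To compare genes, each pooled mean was divided by the length of the gene's merged annotated exons in kilobases, and this value is called the level. Binding proteins, 6 of the 10 genes, made up 99.0% of the summed level, the receptors 0.855% and the ligands 0.121%. Igfbp5 alone made up 60.1% and Igfbp2 24.2%, while Igfbp4 made up 0.795% and Igfbp3 0.178%. Of the summed pooled means without a length, binding proteins made up 97.5%, the receptors 2.22% and the ligands 0.269%. In bulk RNA a level that comes from fewer expressing cells cannot be told apart from one that comes from less RNA per cell. Against all 10282 listed genes with a gene model, whose median level was 99.5 (quartiles 27.5 and 253.3), 6 of the 10 lay above the median, and their own median level was 227.6. The whole list of 10 thus ran from the low end of the listed genes to the very top.

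**Figure D1:**
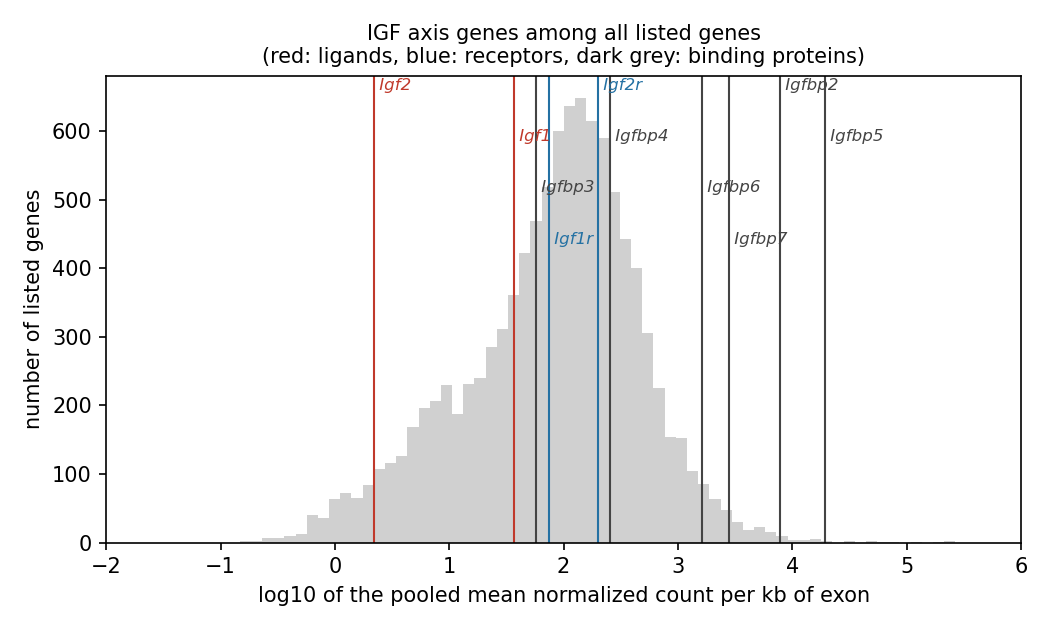
Number of listed genes (vertical axis) by the log10 of the pooled mean normalized count per kb of exon (horizontal axis), with a line for each IGF axis gene. Igfbp5 and Igfbp2 stand at the upper end, at levels of 19282 and 7750, and Igf2 near the lower end at 2.22.

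By level over merged exons, both ligand genes lay below the median of the listed genes. By pooled mean without a length, Igf1 was at percentile 44.5 and Igf2 at 7.81. Igf1 (ENSMUSG00000020053, chromosome 10 of GRCm38, 87858265 to 87937042, plus strand) had a pooled mean of 363.9 and a level of 36.7, at percentile 29 of the listed genes. Its length is ambiguous, because the merged exons of its 8 coding transcripts span 9904 bases, of which 6.21% are coding, while the median coding transcript has 1367.5 bases. With that median the level of Igf1 became 266.1. Igf2 (ENSMUSG00000048583, chromosome 7, 142650766 to 142666816, minus strand) had a pooled mean of 12.7 and a level of 2.22, at percentile 3.99. Only 7.97% of the genes in the D4 table had a lower pooled mean than Igf2. The level of Igf1 was 16.6 times that of Igf2, and at least that many times under each of the other lengths tried. Of the 5723 exon bases of Igf2, 62.8% are also exons of Gm49394, a protein-coding gene model on the same strand that none of the tables listed. How reads on shared exons were assigned is not given in the sources used here, so the level of Igf2 is uncertain. The ratio of Igf1 to Igf2 is uncertain for the same reason, which the other lengths do not address. The antisense gene Igf2os covers another 1.71% of these exon bases and had a pooled mean of 14.4.

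By level, the receptor genes were in the middle of the listed genes. By pooled mean without a length they ranked higher, Igf1r at percentile 77.0 and Igf2r at 85.8. Igf1r (ENSMUSG00000005533, chromosome 7, 67952827 to 68233668, plus strand), the gene of the signalling receptor, had a pooled mean of 1245 and a level of 74.2, at percentile 42.7. Igf2r (ENSMUSG00000023830, chromosome 17, 12682406 to 12769664, minus strand), the gene of the clearing receptor, had a pooled mean of 1862 and a level of 200.1, at percentile 69.1. The level of Igf2r was 2.70 times that of Igf1r over merged exons and 1.92 times over the longest transcript. Over coding segments alone it was 0.825 times, so the order of the receptors depends on the length. Of the merged exons 80.0% were coding in Igf2r and 24.5% in Igf1r. Igf1r and Igf1 likewise changed places, with a ratio of 2.02 over merged exons and 0.410 over the median coding transcript.

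Among the binding proteins, which bind IGFs in the space around the cell, 4 had the highest levels of the 10 genes. Igfbp5 (ENSMUSG00000026185, chromosome 1, 72857932 to 72874884, minus strand), which encodes the binding protein best known from differentiating myoblasts, had a pooled mean of 115810. Only 4 listed genes had a higher pooled mean than Igfbp5, which alone made up 0.873% of the summed pooled means of all listed genes and 82.7% of those of the IGF axis. Its level of 19282 was number 13 of the listed genes and 8705 times that of Igf2, whose own level is uncertain. Igfbp2 (ENSMUSG00000039323, chromosome 1, 72824503 to 72852474, plus strand), another secreted IGF binding protein, had a pooled mean of 14315 and a level of 7750, at percentile 99.7. The level of Igfbp5 was 2.49 times that of Igfbp2, and 1.55 to 9.11 times under the other lengths. Igfbp7 (ENSMUSG00000036256, chromosome 5, 77349240 to 77408041, minus strand), a more distant relative that binds IGFs weakly, followed with a pooled mean of 3369 and a level of 2787, at percentile 98.7. Of its exon bases 7.03% also belong to Polr2b on the other strand. Igfbp6 (ENSMUSG00000023046, chromosome 15, 102144362 to 102149511, plus strand), whose protein prefers IGF2 to IGF1, had a pooled mean of 1816 and a level of 1633, at percentile 97.2. These 4 genes lay above every other member under the merged exons, the longest transcript, the median coding transcript and the coding segments. By pooled mean without a length, Igfbp6 at percentile 85.3 was below Igf2r at 85.8.

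The remaining binding proteins were lower. Igfbp4 (ENSMUSG00000017493, chromosome 11, 99041244 to 99054392, plus strand), whose protein releases IGF when cut by the protease PAPP-A, had a pooled mean of 1126 and a level of 255.1, at percentile 75.2. The level of Igfbp4 was 1518 over the median coding transcript of 742 bases, next to that of Igfbp6. The level of Igfbp6 was 6.40 times that of Igfbp4 over merged exons, 5.55 times over the longest transcript, 1.88 times over coding segments and 1.08 times over the median coding transcript. Igfbp3 (ENSMUSG00000020427, chromosome 11, 7206086 to 7213923, minus strand), whose protein is the main carrier of IGF in blood, had a pooled mean of 179.2 and a level of 57.2, at percentile 37.0. Igfbp3 was thus the lowest of the 6 binding proteins, with a level 337-fold below that of Igfbp5. It was 1.56 times as high as Igf1 over merged exons and 0.326 times over the median coding transcript. The ratio kept its side of 1 under the 4 lengths for 7 of the 9 neighbouring pairs, and not for Igf2r with Igf1r or Igfbp3 with Igf1. All 4 lengths divide the same pooled mean, so without replicates per gene a kept order shows nothing about the error of the counts. Genes further apart in the order changed places too. Over the median coding transcript Igf1, at 266.1, lay above Igf2r at 209.6 and Igf1r at 109.1.

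**Figure D2:**
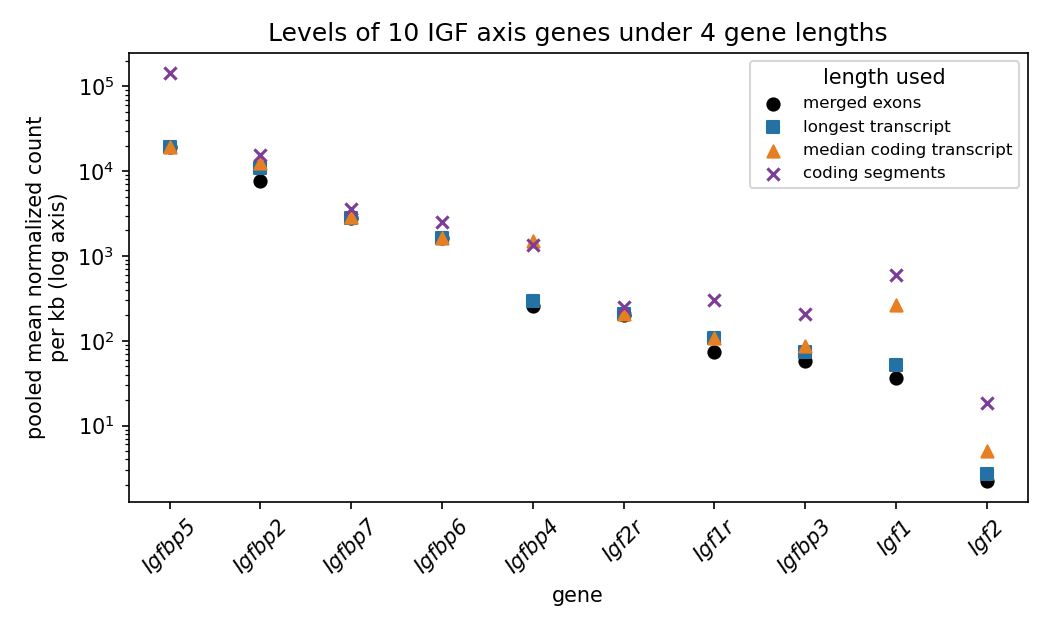
Pooled mean normalized count per kb (vertical log axis) of each gene (horizontal axis), with the length taken as merged exons, longest transcript, median coding transcript or coding segments. Points have no error bars because values per library were not analysed here. Igfbp5 and Igfbp2 stayed on top and Igf2 at the bottom under all 4 lengths, and Igf1 moved most, from 36.7 to 591.7.

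The most abundant binding protein genes were also neighbours. Igfbp2 and Igfbp5 lie on opposite strands of chromosome 1 with 5457 bases between them, and their 3' ends face each other. Igfbp3 lies 3539 bases from Igfbp1 on chromosome 11, and Igfbp1 was in none of the tables. The other members stood apart from each other. Igf2 lies 72622 bases from H19, and the 2 genes are imprinted neighbours.

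The study concerned m6A, so the sequence GGACT, a frequent form of the m6A consensus, was counted on the transcribed strand of the merged exons. No m6A was measured here, and a match is not a methylated site. Before the counts, coding matches of 4 binding protein genes are shown as examples of the motif in its sequence. Only these binding protein genes had a coding match with at least 12 coding bases on each side in the same exon segment. Matches outside coding sequence are not shown, although the paper reports m6A mainly in the 3' untranslated region. The coding matches are given 5' to 3' on the gene's strand in GRCm38, with the motif in capitals.
Igfbp5, chr1:72862403-72862431, minus strand: gtacgtggatggGGACTttcagtgccacg
Igfbp7, chr5:77407956-77407984, minus strand: ctgggtgcagccGGACTgctgctcctgct
Igfbp4, chr11:99051531-99051559, plus strand: caagggggagctGGACTgccaccagctgg
Igfbp6, chr15:102144779-102144807, plus strand: aagtgcgccccaGGACTgcagtgccaacc

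The 10 genes held 62 matches in their merged exons, and their median density was 1.02 per kb, beside 1.00 per kb (quartiles 0.660 and 1.40) over all listed genes. As a group they therefore sat at the middle of the listed genes, with 5 of the 10 below the median. Igfbp6 was the densest member, with 3 matches in 1112 bases (2.70 per kb, percentile 97.9), followed by Igfbp4 with 7 matches in 4416 bases (1.59 per kb, percentile 82.4). Igf1r had 20 matches (1.19 per kb), Igf2r 11 (1.18 per kb) and Igfbp5 7 (1.17 per kb). Lower densities were found in Igf2 (0.874 per kb), Igfbp7 (0.827 per kb), Igfbp3 (0.639 per kb), Igfbp2 (0.541 per kb) and Igf1 (0.505 per kb). Igfbp7 and Igfbp2 had 1 match each. That of Igfbp7 is the one printed, and that of Igfbp2 is outside the longest transcript. In genes this short 1 match weighs much, at 0.899 per kb in Igfbp6, 0.827 per kb in Igfbp7 and 0.541 per kb in Igfbp2. Counts in merged exons leave out matches across splice junctions. The longest transcripts held 14 matches in Igf1r, 12 in Igf2r, 6 in Igfbp4, 2 each in Igf1 and Igf2, and 1 in Igfbp3. Those of Igfbp5, Igfbp6 and Igfbp7 held as many as the merged exons.

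**Figure D3:**
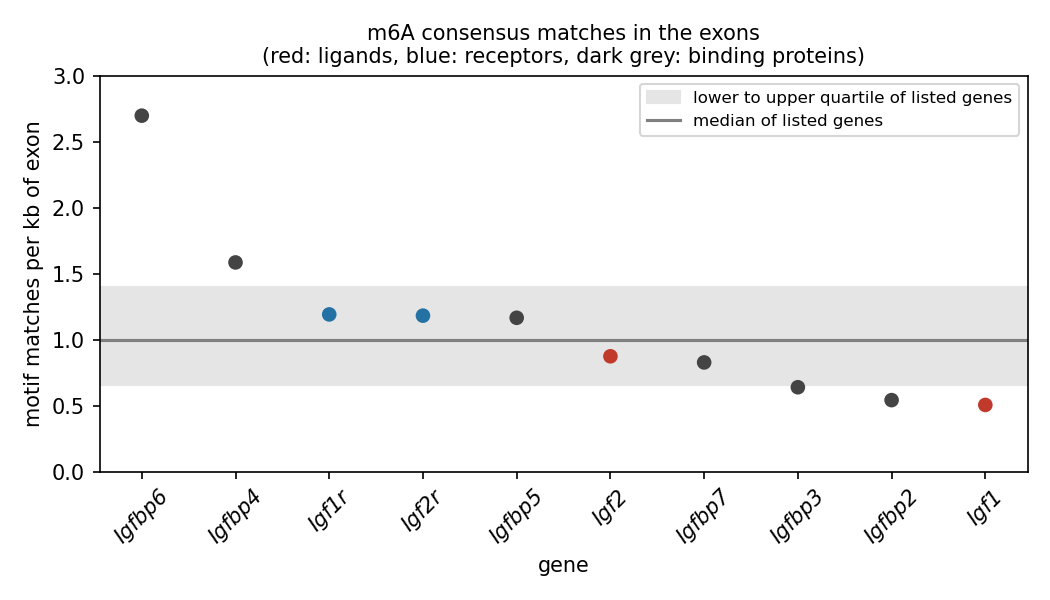
Matches of the m6A consensus sequence per kb of merged exons (vertical axis) for each gene (horizontal axis), with the median (line) and the span from lower to upper quartile (band) of all listed genes. Igfbp6 at 2.70 and Igfbp4 at 1.59 lie above the band, and Igfbp3, Igfbp2 and Igf1 lie below it.

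Other genes of the pathway were read from a list of 43 symbols, of which 32 were in at least 1 table, 26 in the D4 table, 7 in the METTL3 table and 5 in the METTL14 table. The shares of annotated protein-coding genes were 42.2% in at least 1 table, 40.1% in the D4 table, 7.80% in the METTL3 table and 4.91% in the METTL14 table. These shares include silent genes and leave out noncoding genes such as H19, so the counts do not measure enrichment. The median level of these 32 was 114.0, and 8 of them lay above the median level of the IGF axis genes. H19, an imprinted noncoding RNA and not a protein gene, was the highest at a level of 10008. Next came Htra1, a secreted protease that cuts IGF binding proteins, at 1398, Lrp1, a large endocytic receptor, at 1379, and Akt1, the kinase downstream of the IGF receptor, at 1340. The lowest were Pappa, the protease that cuts IGFBP4, at 3.69, the mRNA-binding protein genes Igf2bp3 at 2.81 and Igf2bp1 at 1.58, and the receptor adaptor gene Grb10 at 0.923. The level of the ligand gene Igf2, uncertain because of its shared exons, was thus like those of Igf2bp3 and Igf2bp1. Igfbp1 and Igfals, which encode the binding protein next to Igfbp3 and the blood subunit that joins IGFBP3 complexes, were listed in none of the tables, together with Stc1, Stc2, Irs4, Shc1, Pik3cd, Pdpk1, Rps6kb1 and Gsk3b. The insulin receptor gene Insr had a level of 89.9, close to that of Igf1r. Of the substrates of both receptors, Irs1 had a level of 196.1 and Irs2 of 83.7.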

How the data were processed

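RNA-seq of C2C12 cells in 4 groups of 2 libraries was used, grouped by the titles in the labels. For these values hisat2 (GRCm38), featureCounts (Ensembl annotation 102) and DESeq2 were run by the authors. Tool versions and strand settings are not given in the sources used here. The deposited pooled mean is a signal, the read count of a gene divided by size factors and averaged over libraries by the authors. The authors' log2 fold changes, standard errors, statistics and p-values, and values without a heading, were in the tables and were not used. With the pooled mean alone in use, no test, interval or replicate check was made, and depth per library was not used.

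Gene models came from GENCODE M21 and sequence from RefSeq's copy of GRCm38, the authors' build, though another annotation release. Of 10289 identifiers 10282 were found. Percentiles give the share of listed genes at or below a value, and this step was tested on simulated data. Python 3.11.15, pandas 2.3.3, NumPy 2.4.6 and matplotlib 3.10.9 were used. The genes named were the 10 members, the pathway genes with the 4 highest and 4 lowest levels, Igfbp1 and Igfals. Insr, Irs1, Irs2, the pathway genes in no table, the markers shown and the genes overlapping or near a member were named after their values were seen. The members and lists were chosen with earlier results of these data known. A gene of the pathway list is not reported here by name. Alternatives were other lengths, backgrounds, motifs and matching by identifier.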

Additional observations from a re-analysis of the deposited data

How the results depend on the processing

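The counts of members per table were the same when rows were matched by Ensembl identifier, and the counts of pathway genes changed only in the D4 table, to 25, when protein-coding rows alone were counted, which leaves out H19. The share of Igfbp5 in the summed level was 60.1%. It was 54.4% with the longest transcript, 50.1% with the median coding transcript and 85.3% with coding segments only, where long noncoding ends no longer count as length. Of the 10 levels, 5 moved by over 1.5 times with the median coding transcript and 8 with coding segments only, and none with the longest transcript. The median percentile of the members, 72.2, ranged from 70.0 with protein-coding genes only to 81.2 without a length. The difference of median motif density between members and listed genes was 0.019 per kb and changed sign with each alternative, to -0.20 for GAACT, -0.059 for AGACT and -0.027 in the longest transcript, so it has no stable direction. Protein identity between members was planned and not run, since protein sequences were not used here. No replicate could be left out, and a pooled mean has no error that depth could narrow. No paired analysis was possible because the deposited columns carry no replicate number.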

Other observations

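H19, the imprinted noncoding RNA 72622 bases from Igf2 on chromosome 7, had a pooled mean of 24619, which is 1942 times that of Igf2, and a level 4518 times that of Igf2. Both ratios are uncertain, because 62.8% of the exon bases of Igf2 are shared with Gm49394 and the assignment of such reads is not given. H19 was in the D4 table and in neither of the others, as was Igf2. Airn, the antisense noncoding RNA that overlaps the span of Igf2r on chromosome 17 without sharing annotated exon bases with it, had a pooled mean of 82.7, and the level of Igf2r was 8.70 times that of Airn. These values are pooled over libraries and were noticed after the levels were seen.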
